A study of Homo sapiens with 7 samples.

Results

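The SLC25 genes encode the mitochondrial carrier family, and they were chosen by name alone: every row whose symbol is SLC25A followed by a number. This gave 48 genes of the 20056 symbols with values. HCT116, an established human colorectal carcinoma cell line, was taken in log phase, without a treatment or a genetic change, and split over 3 assays. GRO-seq, which sequences the RNA made when polymerases already on a gene run on in isolated nuclei, gave the transcription rate (TR, 2 libraries). RNA-seq gave the steady-state mRNA abundance (RA, 3 libraries), and sequencing of the mRNA in polysomal gradient fractions gave the translation activity (TA, 2 libraries, from cells treated with cycloheximide before lysis). The question was how far each carrier gene's level moves from transcription to mRNA, read as the stability index log2(RA/TR), and from mRNA to polysomes, read as the translation index log2(TA/RA).

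Mitochondrial carriers are small proteins of the inner mitochondrial membrane that pass nucleotides, phosphate, organic acids, amino acids, cofactors and metal ions between the cytosol and the matrix. The protein is a repeat of similar modules, each with a pair of membrane-spanning helices and a short signature sequence, and most members are encoded in the nucleus without a cleaved import signal. The ADP/ATP carriers and the phosphate carrier supply the ATP synthase with its substrates and are among the most abundant proteins of the inner membrane. Some relatives lie elsewhere, such as SLC25A17 in peroxisomes and SLC25A46 in the outer mitochondrial membrane.

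Near-identical coding sequence limits how far reads can be given to 1 member. Sequences of the ADP/ATP carriers and of the closest pair, SLC25A51 and SLC25A52, are shown first, from the GENCODE annotation on GRCh37. SLC25A2 and SLC25A15, not shown, had the next longest identical run, 33 bases, and were 87.7% identical. SLC25A5 and SLC25A6 (ADP/ATP carriers 2 and 3) were 78.7% identical over their coding sequence, and their longest identical run was 29 bases, of which 27 bases lie in 1 exon. These bases, coding positions 85 to 111, are given below beside those of SLC25A4 (ADP/ATP carrier 1), at chr4:186064611-186064637 (+), chrX:118602563-118602589 (+) and chrX:1510792-1510818 (-), with capitals for the 25 bases that are the same in all 3 genes.
SLC25A4: ATCGAGaGGGTCAAaCTGCTGCTGCAG
SLC25A5: ATCGAGcGGGTCAAgCTGCTGCTGCAG
SLC25A6: ATCGAGcGGGTCAAgCTGCTGCTGCAG
SLC25A51 and SLC25A52, both NAD+ carriers, were 97.6% identical, with 21 differences over 891 coding bases and an identical run of 169 bases. The 30 bases with the most differences, coding positions 311 to 340, lie at chr9:37888208-37888237 (-) and chr18:29340285-29340314 (-), and capitals mark the 3 that differ.
SLC25A51: atttatcctgccttctccACaagcatgtcA
SLC25A52: atttatcctgccttctccGGaagcatgtcC
How reads that map to several places were counted is not given in the sources used here, so the levels of SLC25A51 and SLC25A52 cannot be separated with certainty, and 43 annotated pseudogenes of 15 members, 9 of them of SLC25A5, add the same doubt. Exons of 7 members share bases with another coding gene on the opposite strand, 37% of the exon bases in SLC25A21 (with PAX9), 11.2% in SLC25A32 (with DCAF13) and under 10% in the others. Since the library kit as named does not mark strand, reads of such overlaps cannot be told apart.

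The deposited values are RPKM, that is reads scaled by exon length and by the mapped reads of the library, so a value is a level per length and a share of its library, and a change in RNA per cell cannot be seen in it. Library size, worked out from the steps of the values, lay between 3391897 and 5629982 reads for TR, between 20299018 and 22532134 for RA and between 22421062 and 30805391 for TA, so the TR libraries were the shallowest. The counting error of a gene follows its own reads, which for genes low in RA and TA were fewest there. The epithelial markers EPCAM, KRT8, KRT18, KRT19, CDH1 and VIL1 summed to between 1105 and 1120 RPKM in TR, 1899 and 2550 in RA and 5326 and 5462 in TA. Of these, VIL1 was at 5.81 and 7.59 RPKM in TR and at 0.0356 RPKM or less in each RA and TA library. Markers of 7 genes of other cell types summed to between 3.42 and 24.9 RPKM, of which COL1A1, a fibroblast collagen, gave 16.4 and 18.9 RPKM in TR, 10.1 to 13.8 in RA and 3.3 and 4.6 in TA. HBB was at 4.71 RPKM in TR replicate 1 and 0.567 or less elsewhere, and PTPRC, the leukocyte marker, did not exceed 0.437 RPKM.

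Among the members with reads, transcription spread over many carriers, while mRNA and polysomes were led by the phosphate carrier SLC25A3 and the ADP/ATP carrier SLC25A5. The 48 genes summed to 958 ± 12.9 RPKM in TR (SD, n = 2), 1413 ± 99.1 in RA (SD, n = 3) and 1341 ± 91.3 in TA (SD, n = 2). SLC25A3 and SLC25A5 together took 14.0% and 12.0% of this sum in TR, against 44.5%, 49.0% and 43.2% in RA and 64.1% and 58.1% in TA. The 3 parameters did not overlap in this share, which was picked after the levels were seen and is given without a test.

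**Figure D1:**
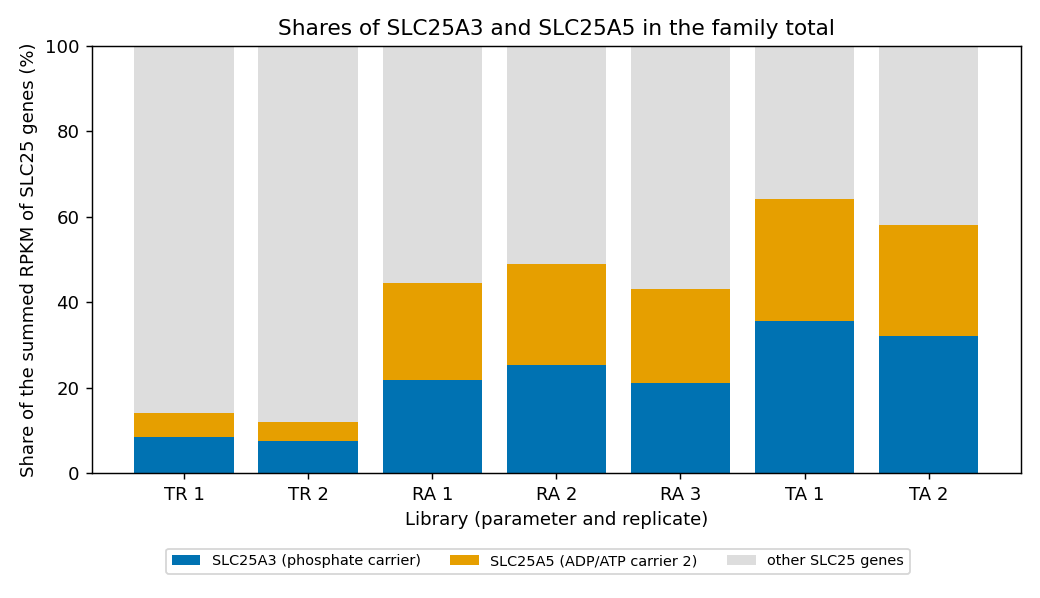
Share of the summed RPKM of the 48 SLC25 genes, in percent, taken by SLC25A3, SLC25A5 and all other members, with 1 bar per library. The blue and orange parts together stand at 12.0% to 14.0% in TR, 43.2% to 49.0% in RA and 58.1% to 64.1% in TA. SLC25A6, listed at 0 in every library, adds nothing to the sum.

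The order of the levels, which leaves SLC25A6 aside, changed between the parameters. In TR the highest means were those of SLC25A1 (89.3 ± 2.90 RPKM, SD, n = 2), SLC25A39 (81.1 ± 18.4) and SLC25A3 (76.7 ± 4.29), and the ranges of SLC25A1 and SLC25A39 overlapped, as did those of SLC25A39 and SLC25A3. In RA the order was SLC25A5 (323 ± 20.7, SD, n = 3), SLC25A3 (320 ± 23.9), SLC25A39 (199 ± 32.7), SLC25A1 (67.8 ± 23.0) and SLC25A11 (54.0 ± 12.7). The ranges of SLC25A5 and SLC25A3 overlapped there, and so did those of SLC25A1 and SLC25A11. Within each RA library SLC25A1 was above SLC25A11, while the order of SLC25A5 and SLC25A3 changed between libraries. In TA SLC25A3 (453 ± 3.03, SD, n = 2) and SLC25A5 (364 ± 2.75) led without overlap, followed by SLC25A1 (95.2 ± 30.6) and SLC25A39 (64.9 ± 36.4), whose ranges overlapped. Over the 42 members above 0 in every library, the SD of log2 RPKM lay between 1.41 and 1.57 in TR, 2.41 and 2.53 in RA, and 3.03 and 3.13 in TA. Over all 13999 such expressed genes it lay between 1.92 and 1.95, 2.83 and 2.87, and 3.22 and 3.23.

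**Figure D2:**
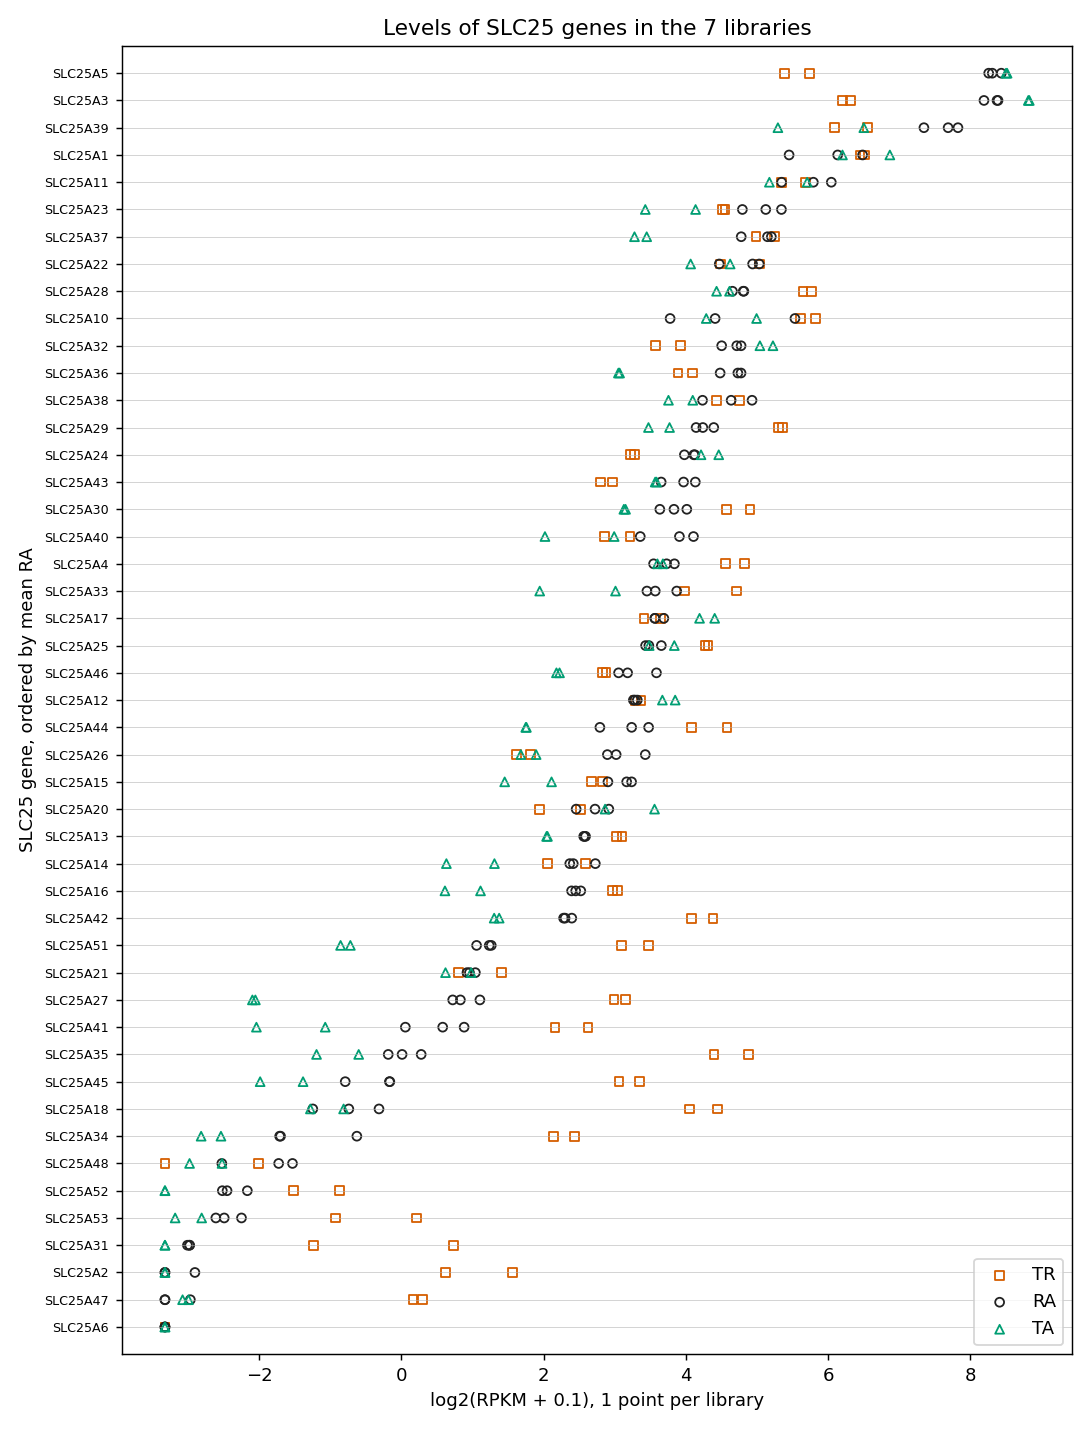
Levels of 47 of the 48 SLC25 genes, as log2(RPKM + 0.1), with 1 point per library (squares TR, circles RA, triangles TA) and genes ordered by mean RA. SLC25A5 and SLC25A3 lie to the right of the TR points in all RA and TA libraries, while the genes at the bottom, such as SLC25A18 and SLC25A35, have RA and TA points far to the left of TR.

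Of the 48 members, 43 reached a mean of 1 RPKM in some parameter and entered the test, which was limma on log2(RPKM + 0.1) over all 14305 genes of that kind, with Benjamini-Hochberg (BH) adjustment over all of them and a threshold of 0.05. All fold changes are on this scale, which understates the change of low genes. SLC25A6, SLC25A31, SLC25A48, SLC25A52 and SLC25A53 were not tested. The mean reached 1 RPKM in all 3 parameters for 34 members, in TR and RA but not in TA for SLC25A27, SLC25A41 and SLC25A51, and in TR alone for SLC25A2, SLC25A18, SLC25A34, SLC25A35, SLC25A45 and SLC25A47. A gene that entered through TR alone had to lie lower in RA and TA, so those 6 genes carry no support for a direction, and the 3 that did not reach 1 RPKM in TA carry none for TA below the other parameters. The authors call the replicates biological, while the labels only number them. Whether they were separate cultures is not said, so p-values measure only the spread between these libraries.

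From TR to RA, 8 of 43 members were higher in RA (18.6%) and 18 were lower (41.9%), while 17 did not pass the test. Over all genes tested, 19.2% were higher and 48.0% lower (67.2% in either direction), so the members' shares lay near the background in both directions. The median stability index was -0.46 over the members and -0.58 over all genes tested. Among the 34 members with 1 RPKM in each parameter, 8 were higher (23.5%) and 9 lower (26.5%), with a background of 24.3% and 33.8%. RPKM is relative to its library, and the median log2 value of a library was between 3.83 and 3.84 in TR, 3.12 and 3.18 in RA and 2.62 and 2.69 in TA. With each library centred on that median, the split was 20 higher and 10 lower (35.4% and 33.7% of all genes), and the median index of all genes moved to 0.09. The members called higher only with centring were SLC25A11, SLC25A12, SLC25A14, SLC25A15, SLC25A17, SLC25A20, SLC25A22, SLC25A23, SLC25A37, SLC25A38, SLC25A40 and SLC25A46. The 8 higher calls and 10 of the 18 lower calls were kept under the centring. Those 10 include the 6 members that entered through TR alone, whose direction the filter fixed.

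From RA to TA, 1 member was higher in TA (2.33%) and 22 were lower (51.2%), with 20 not called, against a background of 6.66% higher and 29.2% lower (35.8% in either direction). The median translation index was -0.67 over the members and -0.37 over all genes tested. In the 34 members with 1 RPKM in each parameter, 17 were lower (background 29.8%) and 1 was higher (background 8.87%). Centring gave 9 higher and 12 lower (19% and 9.81% of all genes), and these 12 were all among the 22. Those called higher only with centring were SLC25A1, SLC25A3, SLC25A5, SLC25A12, SLC25A20, SLC25A24, SLC25A25 and SLC25A32. With 1 library left out, the count of lower members fell most without TA replicate 1, which left a single TA library. It lay between 17 and 22 with 1 RA library left out. The share of all genes called in these fits is not given here, so the fall cannot be read as particular to the members. SLC25A15, SLC25A16, SLC25A26, SLC25A27, SLC25A36, SLC25A37, SLC25A41, SLC25A44, SLC25A46 and SLC25A51 were called lower whichever library was left out. Of these, the filter fixed the direction of SLC25A27, SLC25A41 and SLC25A51, and the call of SLC25A46 was lost with centring.

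From TR to TA, 7 members were higher in TA (16.3%, background 17.0%) and 27 were lower (62.8%, background 57.5%), and 9 did not pass (74.6% of all genes were called in either direction). Those 27 include the tested members that missed 1 RPKM in TA, whose direction the filter fixed. Among the 34 members with 1 RPKM in each parameter 7 were higher (20.6%, background 21.6%) and 17 lower (50%, background 45.6%). The median log2(TA/TR) was -1.02 over the members and -1.08 over all genes tested, and the members' median was the same with SLC25A2, which had no TA reads, set at its bound. With centred libraries the split was 14 higher and 15 lower (38.0% and 35.3% of all genes), and SLC25A25 was then called in the opposite direction. Of the lower calls 21 of 27, and of the higher calls 5 of 7, were kept in every fit with 1 library left out.

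Both indices side by side divided the members as follows. SLC25A26, SLC25A36 and SLC25A39 were higher in RA than in TR and lower in TA than in RA. The other 5 members that were higher in RA (SLC25A3, SLC25A5, SLC25A24, SLC25A32 and SLC25A43) were not called in the translation index. With centred libraries SLC25A3, SLC25A5, SLC25A24 and SLC25A32 were called higher in TA than in RA (log2 1.0, 0.68, 0.77 and 0.97, limma, BH-adjusted p = 0.012, 0.045, 0.014 and 0.0095). A further 11 members were lower in both steps, 7 were lower in RA alone, 8 were lower in TA alone and 8 were called in neither. Among those lower in both steps, the filter fixed a direction for SLC25A34, SLC25A35, SLC25A45, SLC25A27, SLC25A41 and SLC25A51. It also did so for SLC25A2, SLC25A18 and SLC25A47, which were lower in RA alone. The share of all genes with such joint calls is not given here, so these counts are descriptions. These 2 indices share the RA libraries, so no relation between them was tested.

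**Figure D3:**
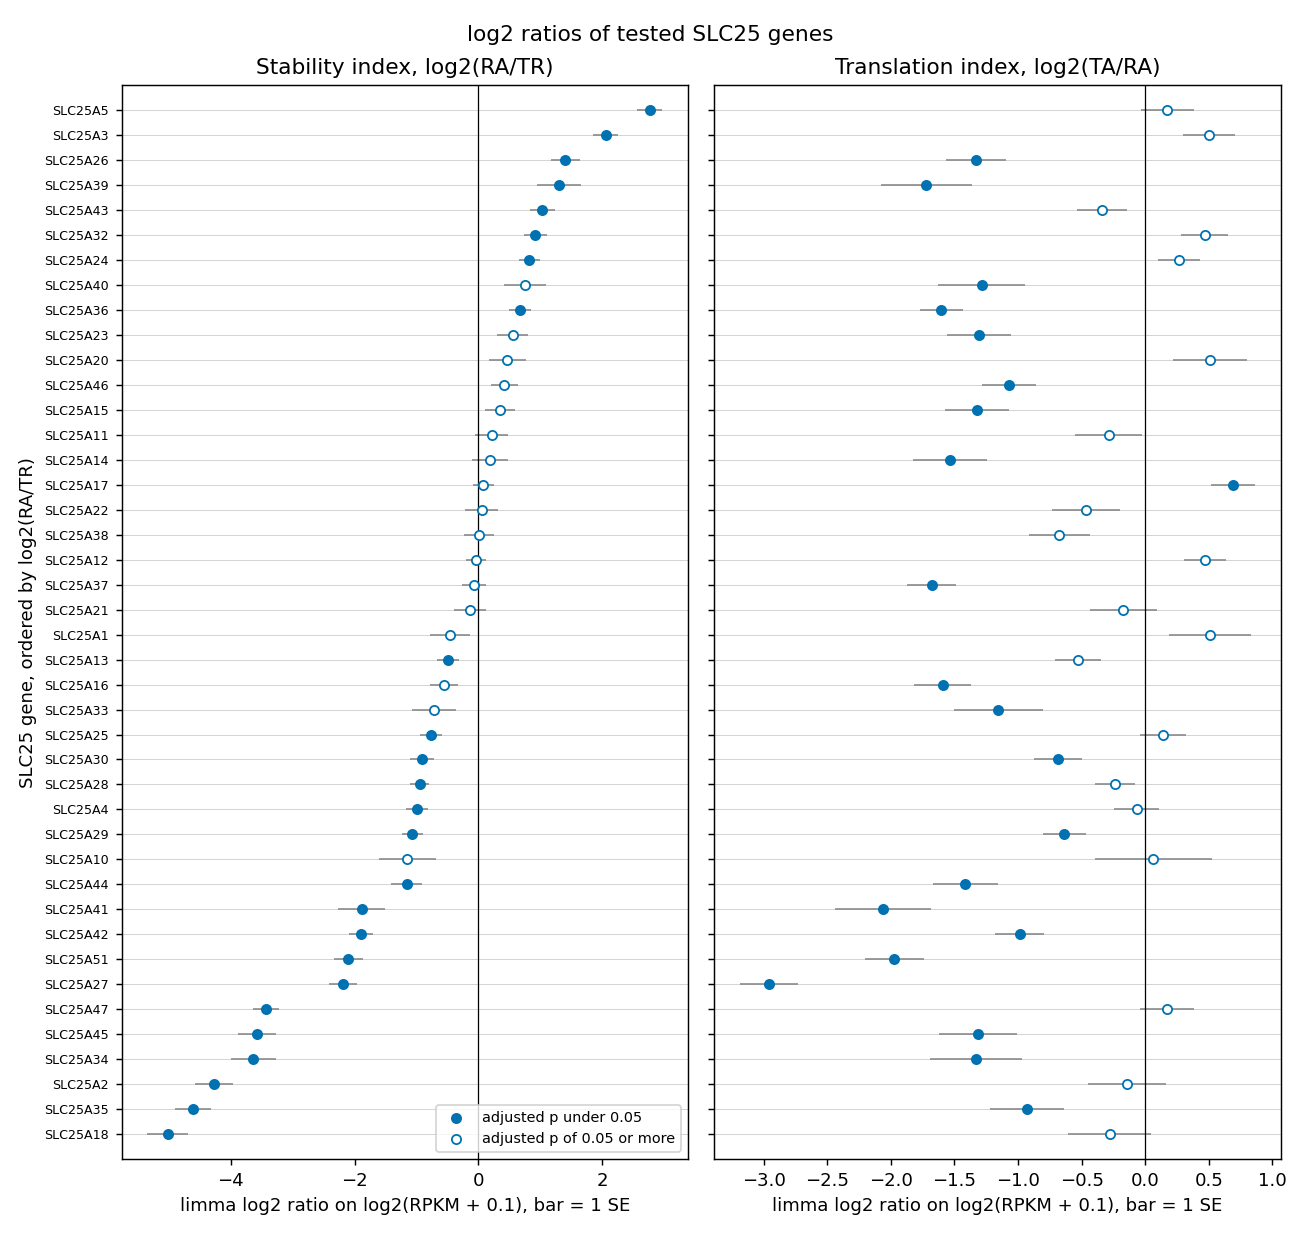
Stability index (left) and translation index (right) of 42 of the 43 tested SLC25 genes in log2 units, ordered by the stability index, with bars of 1 SE from limma and filled points for an adjusted p under 0.05. The stability index runs from -5.01 for SLC25A18 to 2.77 for SLC25A5, and SLC25A17 has the single filled point above 0 on the right.

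**Figure D4:**
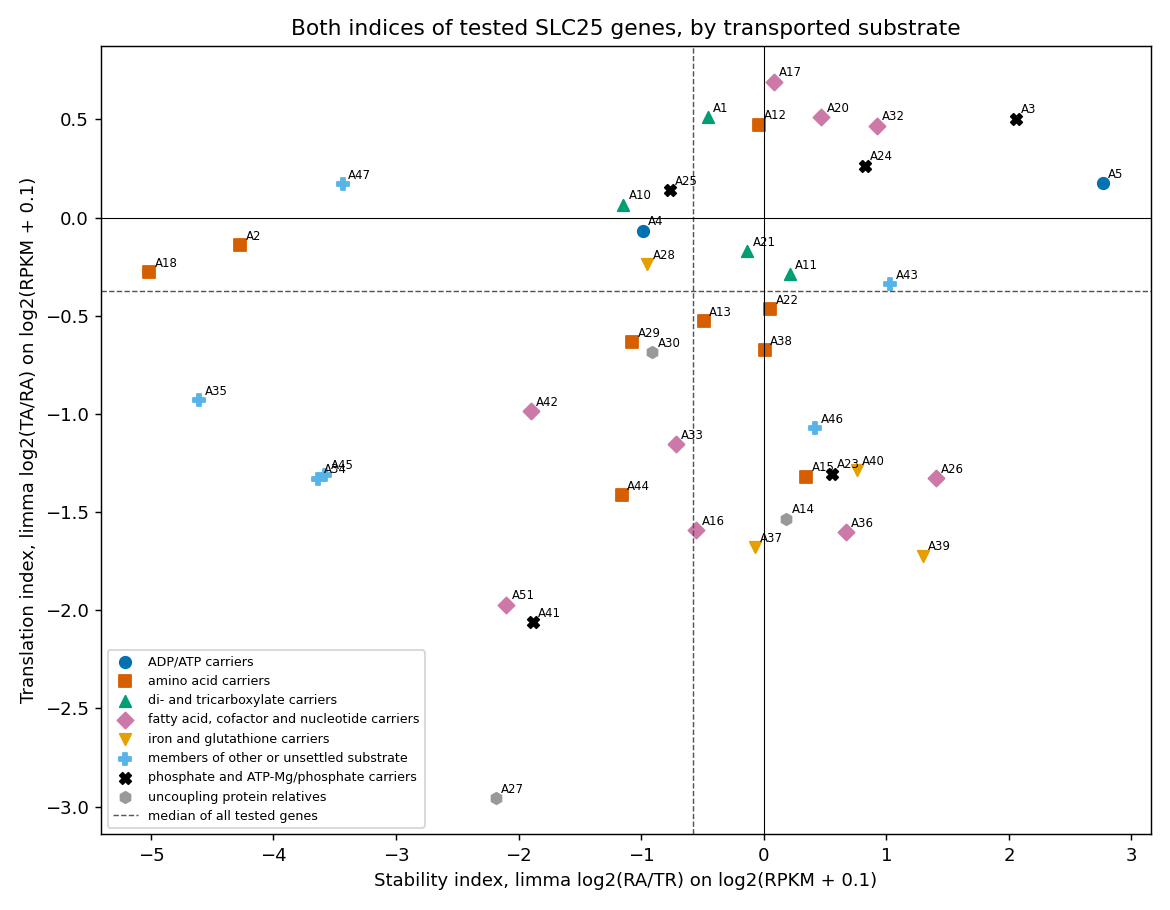
Stability index (x axis) against translation index (y axis), both log2, for 42 of the 43 tested SLC25 genes, with color and shape by transported substrate and dashed lines at the medians of all genes tested (-0.58 and -0.37). SLC25A5 and SLC25A3 lie at the far right near a translation index of 0, SLC25A39 and SLC25A26 at the lower right, and SLC25A27 at the bottom.

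ADP/ATP carriers exchange matrix ATP for cytosolic ADP, and the 4 genes differ in the tissue where each is known to lead. SLC25A5, the form known from dividing cells, was at 53.5 and 41.9 RPKM in TR, 346, 317 and 306 in RA, and 362 and 366 in TA. All RA and TA libraries lay far above both TR libraries. RA was 6.80-fold above TR (log2 2.77, SE 0.21, limma, BH-adjusted p = 9.5e-06) and TA was 7.68-fold above TR (log2 2.94, SE 0.23, limma, BH-adjusted p = 9e-06). Its translation index was 0.18 (SE 0.21, limma, BH-adjusted p = 0.54), and 0.68 and called with centred libraries (limma, BH-adjusted p = 0.045).

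SLC25A4, the heart and muscle form, ran the other way. It was at 23.5 and 28.3 RPKM in TR, 11.6, 13.2 and 14.2 in RA, and 12.0 and 12.7 in TA. RA was 1.98-fold below TR (log2 -0.99, SE 0.18, limma, BH-adjusted p = 0.0013), a call that was lost with centred libraries (log2 -0.31, limma, BH-adjusted p = 0.15). RA and TA overlapped, with a translation index of -0.07 (SE 0.18, limma, BH-adjusted p = 0.80) that was 0.44 with centred libraries. SLC25A31, the testis form, had 2 and 16 reads in TR, 1 read in each RA library and none in TA. Per read sequenced, its TR level was 42.2 times its RA level (exact 95% interval 12.3 to 223, counting error only), and its TA level was at least 35.4-fold lower than TR, taking 3 reads over the group as the floor. SLC25A6, the widely expressed form, is listed at 0 in all 7 libraries. It lies at chrX:1505045-1511006 (-) in GRCh37, in the pseudoautosomal region that the X and Y chromosomes share, where 12 of 15 annotated coding genes are listed at 0 in every library and the other 3 do not exceed 0.0260 RPKM. That value is therefore not read as absence of SLC25A6 mRNA.

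Phosphate for ATP synthesis enters the matrix through SLC25A3. Its level was 79.7 and 73.7 RPKM in TR, 332, 335 and 292 in RA, and 455 and 451 in TA, so that each parameter stood clear of the one before. RA was 4.16-fold above TR (log2 2.06, SE 0.20, limma, BH-adjusted p = 5.1e-05) and TA was 5.90-fold above TR (log2 2.56, SE 0.22, limma, BH-adjusted p = 1.8e-05). The step from RA to TA, log2 0.50 (SE 0.20), did not pass the test (limma, BH-adjusted p = 0.090) although the libraries did not overlap, and it did with centred libraries (log2 1.0, limma, BH-adjusted p = 0.012).

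The ATP-Mg/phosphate carriers SLC25A23, SLC25A24, SLC25A25 and SLC25A41 adjust the adenine nucleotide pool of the matrix, and their calls differed in direction. SLC25A24 was at 9.22 and 9.61 RPKM in TR, 17.2, 15.7 and 17.4 in RA, and 22.0 and 18.5 in TA. Its TA level was 2.13-fold above TR (log2 1.09, SE 0.18, limma, BH-adjusted p = 0.00072), and its RA level 1.77-fold above TR (log2 0.82, SE 0.16, limma, BH-adjusted p = 0.0025). SLC25A41 was at 4.37 and 6.07 RPKM in TR, 1.40, 1.75 and 0.941 in RA, and 0.377 and 0.144 in TA. It fell at both steps, by 3.69-fold from TR to RA (log2 -1.88, SE 0.38, limma, BH-adjusted p = 0.0024) and by 4.17-fold from RA to TA (log2 -2.06, SE 0.38), though TA rests on 18 and 5 reads and its direction was fixed by the filter. SLC25A25 was lower in RA than in TR, a call lost with centring, and SLC25A23 was lower in TA than in RA, a call lost without TA replicate 1 (limma, BH-adjusted p = 0.053).

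Relatives of the uncoupling proteins, SLC25A14, SLC25A27 and SLC25A30, were all called lower in TA than in RA, as were 29.2% of all genes tested. Each of these calls has a limit given below. SLC25A27 (UCP4), known from brain, had 8.79 and 7.85 RPKM in TR, 1.55, 1.68 and 2.05 in RA, and 0.141 and 0.134 in TA. The parameters formed 3 separate levels. Its translation index was the lowest among the members called, at -2.96 (SE 0.23, a 7.77-fold difference), and TA was 35.3-fold below TR (log2 -5.14, SE 0.25) on 13 and 9 TA reads. Both are descriptions, since the gene did not reach 1 RPKM in TA. For SLC25A14 the call in the translation index was lost without TA replicate 1 (limma, BH-adjusted p = 0.053), and for SLC25A30 it was lost without TA replicate 1, TA replicate 2 or RA replicate 3 (limma, BH-adjusted p between 0.089 and 0.10) and with centring (log2 -0.19, limma, BH-adjusted p = 0.50).

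Carriers of di- and tricarboxylates link the citric acid cycle to the cytosol, and none of the 4 (SLC25A1, SLC25A10, SLC25A11 and SLC25A21) passed the limma test in any comparison, with a count of 0 also from robust eBayes. At an unadjusted p under 0.05 limma counted 1 lower from TR to RA, SLC25A10, and 0 in the other comparisons. With centred libraries SLC25A1 was called higher in TA than in RA and in TR (log2 1.01 and 1.23, limma, BH-adjusted p = 0.040 and 0.0097), SLC25A11 higher in RA and in TA than in TR (log2 0.89 and 1.10), and SLC25A21 higher in TA than in TR (log2 0.87). Citrate leaves for lipid synthesis through SLC25A1, which was at 87.3 and 91.4 RPKM in TR, 89.5, 43.7 and 70.2 in RA, and 73.6 and 117 in TA. Those ranges overlapped throughout, with an index of -0.46 (SE 0.32) from TR to RA that was 0.22 with centred libraries, and 0.51 (SE 0.32) from RA to TA. SLC25A11, the oxoglutarate carrier, was at 40.7 and 51.3 RPKM in TR, 66.0, 40.6 and 55.4 in RA, and 36.0 and 52.1 in TA, also with overlap in all comparisons. SLC25A21, the oxodicarboxylate carrier, lay between 1.44 and 2.57 RPKM in all 7 libraries. The dicarboxylate carrier SLC25A10 was at 56.6 and 49.0 RPKM in TR, 46.3, 13.6 and 21.2 in RA, and 19.4 and 31.8 in TA. Its stability index was -1.14 (SE 0.46, limma, BH-adjusted p = 0.057), and it passed the test without RA replicate 1, the highest RA library (limma, BH-adjusted p = 0.0026).

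Among the 9 amino acid carriers limma called none higher in any comparison (robust eBayes likewise, and at an unadjusted p under 0.05 it was 0 from TR to RA and 1 in each of the other comparisons, SLC25A12), 5 were lower in RA than in TR (55.6%, background 48.0%) and 3 lower in TA than in RA (33.3%, background 29.2%), shares near the background. SLC25A18, a glutamate carrier, was at 16.5 and 21.7 RPKM in TR, 0.322, 0.705 and 0.500 in RA, and 0.470 and 0.313 in TA. Its stability index was -5.01 (SE 0.33, a 32.3-fold difference), on 14 to 34 reads per RA library, while RA and TA overlapped. It entered the test through TR alone, so this value is a description. It was the lowest index of the tested members with the pseudocount of 0.1, but with 0.01 SLC25A2 and SLC25A47 were lower (log2 -6.96 and -6.12, against -5.26 for SLC25A18). SLC25A2, an ornithine carrier, had 7 and 23 reads in TR, 1 read over the 3 RA libraries and none in TA. Per read sequenced, TR was 211 times RA (exact 95% interval 35.0 to 8600) and TA was at least 59.0-fold lower than TR. Its relative SLC25A15 is 87.7% identical in coding sequence, with a shared run of 33 bases, and was at 8.89, 7.39 and 9.34 RPKM in RA.

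The other amino acid carriers moved less. SLC25A15, the main ornithine carrier of the urea cycle, was lower in TA than in RA (log2 -1.32, SE 0.25, limma, BH-adjusted p = 0.0072), and SLC25A38, a glycine carrier, had a translation index of -0.67 (SE 0.24) that did not pass the test. SLC25A22, the second glutamate carrier, was at 32.6 and 22.3 RPKM in TR and 32.6, 22.1 and 30.6 in RA, with a stability index of 0.05 (SE 0.27). Aspartate/glutamate exchange is served by SLC25A12 and SLC25A13, which are 71.8% identical. SLC25A12 was not called in any comparison, and was called higher in all 3 with centred libraries (log2 0.63, 0.97 and 1.60). Of the other amino acid carriers, SLC25A15, SLC25A22 and SLC25A38 were called higher in RA than in TR with centring (log2 1.02, 0.73 and 0.68), as was SLC25A22 in TA than in TR (log2 0.76). SLC25A13 was lower in RA than in TR by 0.49 on the log2 scale, a call that was lost with centring and in 6 of the 7 fits with 1 library left out. SLC25A44, a branched-chain amino acid carrier, was lower in both steps (log2 -1.16, SE 0.26, and -1.41, SE 0.26), and so was SLC25A29, a carrier of basic amino acids (log2 -1.07, SE 0.17, and -0.64, SE 0.17). The first call of SLC25A44 was lost without TR replicate 2 (limma, BH-adjusted p = 0.066) and the second of SLC25A29 without TA replicate 1, TA replicate 2 or RA replicate 3 (limma, BH-adjusted p between 0.051 and 0.13). With centring the first call of SLC25A44 (log2 -0.49, limma, BH-adjusted p = 0.13) and both of SLC25A29 (log2 -0.40 and -0.13, limma, BH-adjusted p = 0.080 and 0.60) were lost.

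Carriers of fatty acids, cofactors and nucleotides numbered 11, of which 10 were tested. They were split in the stability index, with 3 higher and 3 lower (30% each, background 19.2% and 48.0%). From RA to TA 7 of the 10 were lower (70%, background 29.2%), with the direction of SLC25A51 fixed by the filter. Only 1 was higher in TA (10%, background 6.66%). SLC25A17, the peroxisomal carrier of coenzyme A, FAD and NAD+, was that gene. It was at 12.4 and 10.5 RPKM in TR, 11.7, 12.8 and 11.8 in RA, and 21.1 and 18.2 in TA, with both TA libraries above all others. TA was 1.62-fold above RA (log2 0.69, SE 0.17, limma, BH-adjusted p = 0.018) and 1.71-fold above TR (log2 0.77, SE 0.19, limma, BH-adjusted p = 0.0056). The first of these calls was lost without TA replicate 1 (limma, BH-adjusted p = 0.12) and without RA replicate 3 (limma, BH-adjusted p = 0.062).

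SLC25A26 carries the methyl donor S-adenosylmethionine into the matrix. It was at 3.42 and 2.96 RPKM in TR, 8.02, 10.7 and 7.35 in RA, and 3.11 and 3.62 in TA, so that on this scale TR and TA overlapped below RA. With centred libraries TA was called higher than TR (log2 1.25, limma, BH-adjusted p = 0.0027). RA was 2.64-fold above TR (log2 1.40, SE 0.23, limma, BH-adjusted p = 0.00095) and 2.51-fold above TA (log2 of TA/RA -1.33, SE 0.23, limma, BH-adjusted p = 0.0059). SLC25A36, a pyrimidine nucleotide carrier, was also highest in RA, with 14.7 and 17.0 RPKM in TR, 22.3, 27.3 and 26.5 in RA, and 8.29 and 8.20 in TA, which lay below TR on this scale. With centred libraries its log2(TA/TR) was 0.24 and not called (limma, BH-adjusted p = 0.29). Its translation index was -1.60 (SE 0.17, limma, BH-adjusted p = 0.0025). The stability index of 0.67 (SE 0.17, limma, BH-adjusted p = 0.0085) was no longer called without TR replicate 1 (limma, BH-adjusted p = 0.050).

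SLC25A32, which brings folate and FAD into mitochondria, rose from 15.1 and 11.8 RPKM in TR to 22.6, 27.3 and 26.2 in RA and stood at 37.3 and 32.9 in TA. The 3 parameters did not overlap. RA was 1.89-fold (log2 0.92, SE 0.18, limma, BH-adjusted p = 0.0023) and TA 2.62-fold above TR (log2 1.39, SE 0.20, limma, BH-adjusted p = 0.00031). SLC25A20, the carnitine/acylcarnitine carrier of fatty acid oxidation, was at 3.74 and 5.63 RPKM in TR, 6.51, 7.46 and 5.40 in RA, and 11.7 and 7.19 in TA. Its TA level was 1.98-fold above TR (log2 0.98, SE 0.32, limma, BH-adjusted p = 0.022), but this was lost without TA replicate 1 (limma, BH-adjusted p = 0.15) or TR replicate 1 (limma, BH-adjusted p = 0.17).

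SLC25A51, which brings NAD+ into the matrix, was at 8.43 and 11.1 RPKM in TR, 1.98, 2.30 and 2.26 in RA, and 0.509 and 0.454 in TA. It fell by 4.29-fold from TR to RA (log2 -2.10, SE 0.23, limma, BH-adjusted p = 8.7e-05) and by 3.92-fold from RA to TA (log2 -1.97, SE 0.23), where the filter fixed the second direction. Its near-copy SLC25A52 held 4 reads in TR, 7 in RA and none in TA, and its TA level was at least 7.87-fold lower than TR and at least 1.96-fold lower than RA per read sequenced. SLC25A42, a coenzyme A carrier, was lower in both steps, with a stability index of -1.90 (SE 0.19) and a translation index of -0.99 (SE 0.19). SLC25A16, linked to coenzyme A transport, and SLC25A33, a pyrimidine nucleotide carrier, were not called in the stability index and were lower in TA than in RA (log2 -1.59, SE 0.22, and -1.15, SE 0.35), and the call of SLC25A33 was lost with centring and without TA replicate 1, RA replicate 3 or either TR replicate. The translation call of SLC25A42 was lost without TA replicate 1 (limma, BH-adjusted p = 0.051) and with centring.

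Iron enters the matrix through the mitoferrins SLC25A37 and SLC25A28, and glutathione through SLC25A39 and SLC25A40. SLC25A39 was at 94.1 and 68.1 RPKM in TR, 227, 163 and 206 in RA, and 39.2 and 90.6 in TA. Its RA libraries were the highest of the 7, and its TA libraries differed by 1.21 on the log2 scale. RA was 2.46-fold above TR (log2 1.30, SE 0.36, limma, BH-adjusted p = 0.012) and 3.30-fold above TA (log2 of TA/RA -1.72, SE 0.36, limma, BH-adjusted p = 0.0097). The first call was lost without TR replicate 1 or TR replicate 2 (limma, BH-adjusted p = 0.054 and 0.14) and the second without TA replicate 1 (log2 -1.12, limma, BH-adjusted p = 0.058).

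SLC25A37, the form known from red cell precursors, was at 31.6 and 37.8 RPKM in TR, 27.4, 35.4 and 36.7 in RA, and 9.61 and 10.8 in TA. TR and RA overlapped, with a stability index of -0.07 (SE 0.19) that was 0.60 and called with centring (limma, BH-adjusted p = 0.023), and TA lay apart, with a translation index of -1.68 (SE 0.19, a 3.20-fold difference, limma, BH-adjusted p = 0.0026). The widely expressed SLC25A28 had the other pattern. It was lower in RA than in TR (log2 -0.95, SE 0.16, limma, BH-adjusted p = 0.00084), a call lost with centring, and was not called from RA to TA (log2 -0.24, SE 0.16). Whether the translation indices of the mitoferrins differ was not tested. SLC25A40 was lower in TA than in RA (log2 -1.29, SE 0.34, limma, BH-adjusted p = 0.022), a call lost without TA replicate 1, RA replicate 3 or either TR replicate (limma, BH-adjusted p between 0.067 and 0.15) and with centring.

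Of the 8 members with another or an unsettled substrate 6 were tested. From TR to RA 1 was higher in RA (16.7%, background 19.2%) and 4 were lower (66.7%, background 48.0%). All 4 lower genes (SLC25A34, SLC25A35, SLC25A45 and SLC25A47) entered the test through TR alone, so the filter fixed their direction. SLC25A35 was at 21.0 and 29.5 RPKM in TR, 1.11, 0.781 and 0.908 in RA, and 0.338 and 0.561 in TA. SLC25A34 was at 4.32 and 5.32 RPKM in TR, 0.208, 0.549 and 0.206 in RA, and 0.0423 and 0.0726 in TA. SLC25A45 was at 8.25 and 10.1 RPKM in TR, 0.791, 0.479 and 0.795 in RA, and 0.153 and 0.284 in TA. All 3 genes had RA and TA far below both TR libraries, with stability indices of -4.60 (SE 0.29), -3.63 (SE 0.36) and -3.58 (SE 0.31) and values of log2(TA/TR) of -5.54 (SE 0.32), -4.96 (SE 0.40) and -4.89 (SE 0.34). Each entered the test through TR alone, so these values are descriptions of a direction that the filter fixed. Their calls from RA to TA, by contrast, were lost with centring and without TA replicate 1.

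SLC25A47, known from liver, had 6 and 11 reads in TR, 1 read over the RA libraries and 1 read in each TA library, which made TR 119 times RA (exact 95% interval 18.7 to 4992) and 50.1 times TA (11.9 to 447.5) per read sequenced. SLC25A43 was the member of this group that was higher in RA, with 7.76 and 6.84 RPKM in TR, 12.5, 17.5 and 15.6 in RA, and 11.9 and 11.8 in TA. Its stability index was 1.03 (SE 0.20, limma, BH-adjusted p = 0.0019). Its call from TR to TA (log2 0.69, SE 0.22, limma, BH-adjusted p = 0.018) was lost without either TA replicate or TR replicate 2 (limma, BH-adjusted p between 0.058 and 0.089). SLC25A46, of the outer membrane, was lower in TA than in RA by 1.07 on the log2 scale (SE 0.21, limma, BH-adjusted p = 0.0087), a call lost with centring. SLC25A48 held 1, 13 and 3 reads over the TR, RA and TA libraries, with RA 3.64 times TA (exact 95% interval 1.0 to 19.9), and SLC25A53 held 46, 33 and 8 reads.

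The gene structures were alike in size and scattered in position. The coding length of the canonical transcript lay between 822 and 2034 bases with a median of 942, and 42 of 48 members were between 800 and 1200. Transcripts had 1 to 18 exons (median 8), and the genes lay on 19 chromosomes, 5 of them on X. In the 43 tested members, of the exon length used for RPKM, between 28.4% and 81.1% was noncoding (median 59.8%). This noncoding share had a median of 67.7% in the 22 members called lower in TA than in RA and 54.1% in the 20 members not called, with ranges of 28.4% to 81.1% and 29.8% to 79.8% that overlapped nearly in full. Across the 43 tested members, which share their libraries, Spearman's rho of the translation index with the noncoding share was -0.16. For the stability index and the GC content of the transcript it was -0.40, beside a rho of 0.27 between GC content and the difference of RA replicates 1 and 2. The part of base composition in the indices was not tested.

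Promoter windows of 300 bases (250 before and 50 after the annotated start, RefSeq, GRCh38.p14) were at hand for 40 of the 48 members. The motif CCGGAAGT, bound by ETS factors, was in 3 of them on either strand (7.50%), against 4.44% of all 27305 windows. The E-box CACGTG was in 7 members (17.5%), against 7.43%. Exact copies of the NRF1 and YY1 motifs were in none of the 40, against 1.36% and 1.28% of all windows. The 30 bases around the ETS motif, in capitals, are shown for SLC25A17, the member that was higher in TA than in RA, and for SLC25A24, higher in RA than in TR, at chr22:40819376-40819405 (-) and chr1:108200408-108200437 (-). The motif ends 41 and 76 bases before the start. In the third member with it, SLC25A46, it ends 26 and 6 bases before the start (not shown). SLC25A46 was called the other way, lower in TA than in RA.
SLC25A17: cgccccgcgacCCGGAAGTggttctagggc
SLC25A24: ccagctccctcACTTCCGGctctctggagg
These matches are descriptions of the letters and not of a bound site.

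Genes that act with the carriers were read from a list of 30, all of which were tested (TOMM70A, also planned, is not among them). Of these 11 were higher (36.7%, background 19.2%) and 12 lower (40%, background 48.0%) in RA than in TR. From RA to TA 2 were higher (6.67%, background 6.66%) and 10 lower (33.3%, background 29.2%). Of the 11 higher calls 6 were lost without a single library (TOMM5, TOMM7, MPC1, MPC2, SFXN1 or SFXN4), and 9 of the 10 lower calls from RA to TA were lost with centring, all but TOMM22. Of the 12 lower calls from TR to RA 5 were lost with centring, and the filter fixed the direction of UCP1 and UCP3. The carrier import machinery of 15 genes brings carriers through the outer membrane and into the inner one. From TR to RA 3 were higher and 7 lower (20% and 46.7%, background 19.2% and 48.0%), near the background. From RA to TA 1 was higher and 8 lower (6.67% and 53.3%, background 6.66% and 29.2%). Of those 8 lower calls 7 were lost with centring and 5 without a single library. TOMM20, a receptor of the outer membrane translocase, was at 34.3 and 29.1 RPKM in TR and 89.7, 121 and 103 in RA, 3.27-fold higher (log2 1.71, SE 0.19, limma, BH-adjusted p = 8.5e-05). TIMM10B, a small chaperone subunit of the inner membrane translocase for carriers, was at 42.5 and 46.4 RPKM in TR and 13.1, 17.2 and 13.8 in RA, 3.03-fold lower (log2 -1.60, SE 0.18, limma, BH-adjusted p = 9.6e-05). TOMM22 had the lowest translation index of the list, -1.51 (SE 0.23, limma, BH-adjusted p = 0.0039), with 86.2, 89.7 and 78.6 RPKM in RA and 23.5 and 37.4 in TA.

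The pores of the outer membrane, VDAC1 and VDAC3, were higher in RA than in TR (log2 1.11, SE 0.18, and 1.24, SE 0.21), and VDAC2 was not called (log2 -0.36, SE 0.16). MTCH2, an outer membrane relative of the carriers, had 19.7 and 18.9 RPKM in TR, 55.5, 42.6 and 46.2 in RA, and 80.1 and 73.0 in TA. Its translation index of 0.68 (SE 0.17, limma, BH-adjusted p = 0.020) was lost without RA replicate 3, TA replicate 1 or TA replicate 2. The uncoupling protein UCP3 was 19-fold lower in RA than in TR (log2 -4.25, SE 0.28), a description, since like the 6 SLC25 genes above it passed 1 RPKM in TR alone. The same holds for UCP1, with 0, 0 and 2 reads in RA and the lowest stability index of the list, -5.39 (SE 0.44). Both subunits of the pyruvate carrier, MPC1 and MPC2, were higher in RA than in TR (log2 0.86, SE 0.21, and 0.83, SE 0.31), and both calls were lost without TR replicate 2. Of 5 sideroflexins, which carry serine among other substrates, 2 were higher and 3 lower in RA than in TR (40% and 60%, background 19.2% and 48.0%). From RA to TA limma called 0 of them, where 3 were lower at an unadjusted p under 0.05 and robust eBayes also called 0.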

How the data were processed

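Reads had been aligned by the authors to hg19 with TopHat and counted with HTSeq-count in exon regions only, and the deposited values are RPKM per gene, with replicates kept apart. The counting mode and annotation are not given in the sources used here. Reads and library sizes were recovered from the RPKM steps, and 100% of the values above 0 gave whole reads within 0.001 in the 18185 of 18187 genes where an exon length could be recovered. Reads carry no molecular identifiers, so intervals and the floor of 3 reads cover counting error only.

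All 7 libraries were fitted with limma 3.58.1 (R 4.3.3, trend in eBayes) on log2(RPKM + 0.1), over the 14305 genes with a mean of 1 RPKM or more in any parameter, with Benjamini-Hochberg adjusted p-values (2-sided). The fit was tested on simulated data. Other steps used Python 3.11.15, pandas 2.3.3, numpy 2.4.6, scipy 1.17.1 and matplotlib 3.10.9. Members were matched to GENCODE 44 lifted to GRCh37. Exact intervals of read ratios are conditional binomial (Clopper-Pearson).

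The members and gene lists were chosen with earlier results of these data known. Values were given by rule for up to 6 called members at each end of every comparison, the 5 highest in RA, the ADP/ATP carriers and every member at 0 reads in a parameter. Other members were named by substrate group after their values were seen. Alternatives covered pseudocounts, filters, centring, the fit, a replicate block and each library left out. One member is counted in the totals, but its own values are not reported here.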

Additional observations from a re-analysis of the deposited data

How the results depend on the processing

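Members called from TR to RA numbered 20 higher and 10 lower with centred libraries, and 9 lower with 1 RPKM in each parameter. From RA to TA, 2 were higher with a pseudocount of 0.01, 9 higher and 12 lower with centring, and 0 higher (0 to 1 with each library left out) and 10 lower (10 to 22) with the replicate block. From TR to TA the counts were 14 higher and 15 lower with centring, and 17 lower with 1 RPKM in each parameter. The replicate block rested on a number alone, since the deviations of libraries with the same number correlated at 0.085 for TR and RA, -0.505 for TA and RA and 0.0094 for TR and TA over 14305 genes. The share of all genes called with the replicate block, or with a library left out, is not given here. The cause of these shifts was not tested.

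Of the log2 ratios of members named by the rule, 642 values under the alternatives kept direction and side of the threshold, 12 became weaker, 6 stronger and 12 changed sign. The rule picked members largely as the extreme calls of the main fit, and the filter fixed a direction for some. Some alternatives also leave a log2 ratio as it was, so the count of 642 does not measure robustness. With centring, the log2 ratio of SLC25A1 from TR to RA was 0.22, those of SLC25A11 and SLC25A4 from RA to TA were 0.21 and 0.44, and those of SLC25A39, SLC25A11 and SLC25A4 from TR to TA were 0.75, 1.10 and 0.12. The replicate block gave 0.001 for SLC25A4 from RA to TA. With each library left out, SLC25A4 lay between -0.15 and 0.001 from RA to TA, and from TR to TA SLC25A39 lay between -1.03 and 0.18, SLC25A1 between -0.28 and 0.39 and SLC25A11 between -0.34 and 0.19. Bounds with the 3-read floor rest on no reads in TA, and a change below a few reads was not detectable.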

Other observations

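Replicates of the tested members were compared in RA between replicates 1 and 2 and in TA between replicates 1 and 2, and other pairs were not ranked. RA replicate 1 was above RA replicate 2 by 1.75 on the log2 scale in SLC25A10 and by 1.03 in SLC25A1, whose transcripts have a GC content of 65.3% and 64.5%. SLC25A29, with a GC content of 65.1%, differed by 0.15. SLC25A34 and SLC25A18, with a GC content of 59.4% and 53.9%, differed the other way, by -1.07 and -0.93, on 13 to 38 reads per RA library. TA replicate 2 was above TA replicate 1 by 1.21 in SLC25A39, 1.07 in SLC25A33 and 0.97 in SLC25A40. SLC25A41, on 18 and 5 TA reads, and SLC25A20 differed the other way, by -0.97 and -0.69. SLC25A3 and SLC25A5, with the most reads, differed between these pairs by 0.13 or less.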
